A study of Mus musculus with 10 samples.

Results

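Adventitial Dpp4 and Pi16 fibroblasts were examined in axillary lymph nodes that drained a mammary tumour, in nodes taken after lipopolysaccharide (LPS), and in nodes of untreated mice. The cells came from 2 of the 5 gene libraries of the series, 1 made from stromal cells and 1 from myeloid and stromal cells. A cell needed at least 500 UMIs (unique molecular identifiers, each counting 1 captured transcript), at most 10% mitochondrial UMIs, and 1 hashtag antibody with a count of at least 10 and 3 times the next. Of the 7766 such cells, 1225 held at least 5 UMIs of Col1a1, Col1a2, Col3a1 and Dcn together and none of Ptprc, Pecam1 or Cdh5, and are called gated fibroblasts. Adventitial fibroblasts were chosen by their UMIs of 4 further genes, as the 552 of them with under 2 UMIs of Ccl19 and at least 5 UMIs of Dpp4, Pi16 and Pcolce2 together. The 5 gene libraries held 56333 barcodes in all.

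All mice were wild-type (WT) female BALB/C mice aged 8 weeks. Mice of the 4T1 and 67NR groups carried mouse mammary carcinoma cells of the 4T1 line, which is known to metastasise, or of the 67NR line, which is not, placed orthotopically in the 4th mammary pad. Their nodes were taken 18 days after injection, when tumours had reached 500 mm3. Mice of the LPS group received LPS subcutaneously 72 hours before the nodes were taken, and the naive group was untreated. Per the labels, each condition pooled 3 or more mice, and no file maps cells to mice. The hashtags for the conditions read 4T1.pre-met, 67NR, LPS.PL and CTRL.NDLN in the stromal library and 4T1PM, 67NR and CTRLNDLN in the other, and their suffixes are not explained in the labels. By its title, the series concerns a Tlr4-dependent axis of fibroblasts and monocytes, Tlr4 being the receptor for LPS.

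Adventitial fibroblasts sit in the sleeve of connective tissue around larger vessels and beneath organ capsules. Across mouse tissues they are marked by Dpp4, a cell-surface peptidase, and Pi16, a secreted peptidase inhibitor-like protein, and cells of this kind are regarded as a reservoir from which more specialised fibroblasts arise. In lymph nodes they stand apart from the reticular cells of the T zone, which make Ccl19 and Ccl21 and guide lymphocytes. They are known for matrix proteins, Wnt modulators such as Sfrp2, and ligands of vessels and leukocytes.

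The stromal library gave 399 adventitial fibroblasts, with 44 from 4T1, 202 from 67NR, 121 from LPS and 32 from naive nodes. The myeloid and stromal library gave 153, with 58 from 4T1, 62 from 67NR and 33 from naive nodes, and it had no LPS. UMIs were summed per library and condition into 7 sums, of 512003 to 3197107 UMIs, and levels are given as counts per 1000000 UMIs of a sum (CPM). Median UMIs per cell were 15014 to 18498 over the 7 sums, median genes per cell 4180.5 to 4580, and median mitochondrial shares 1.43 to 2.01%. No adventitial cell exceeded 3 times the median UMIs of the adventitial cells of its library. In the naive sum of the myeloid and stromal library the largest cell held 50618 UMIs, just over 3 times that sum's median of 16711. No barcode of the class was shared between the libraries. The labels do not say whether separate mice went into the libraries. The p-values therefore measure only how unevenly the differences between conditions repeated across the libraries, a spread that may be technical.

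The gate chose the cells, so its genes are given as a description. In the stromal library 97.2% of adventitial fibroblasts held a UMI of Pi16, 95.7% of Pcolce2 and 81.2% of Dpp4, and in the myeloid and stromal library 98%, 92.8% and 81.7% held one. The summed count of these genes ran between 5 and 215 in a cell of the stromal library, with a median of 34, and between 5 and 175 in the other, with a median of 26. Cells just inside the threshold, at 5 or 6 UMIs, numbered 35 and 12, and cells just outside it, at 3 or 4 UMIs, numbered 29 and 14. Ccl19 alone kept out 46 and 17 cells. Sfrp2, a secreted Wnt modulator that the gate did not use, was found in 64.4% and 72.5% of adventitial cells, and in 10.7% and 8.66% of the other gated fibroblasts. In cells gated as endothelial (Pecam1 or Cdh5 present), which should lack it, the share was 0.347% and 0.630%, at median depths of 8789 and 19726 UMIs against 16592 and 17993 in adventitial cells. A UMI of Dpp4 was also found in 44.5% and one of Pi16 in 26.5% of the endothelial-gated cells of the myeloid and stromal library, at summed levels of 58.0 and 21.1 CPM against 313 and 1249 CPM in adventitial cells. Among cells just inside the threshold Sfrp2 was found in 22.9% and 25%, and among those just outside it in 17.2% and 14.3%.

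The lists of adventitial and reticular markers outside the gate went with the label, which the gate itself favours. Gated fibroblasts that failed its Ccl19 limit were placed among the others, and reticular genes that vary with Ccl19 went with them. Genes that vary with the gate's adventitial genes are likewise favoured in adventitial cells. The levels of these lists are therefore a description and not an independent check of the label. The 20 universal and adventitial fibroblast genes, among them Cd55, Ly6c1, Anxa3 and Sema3c, summed to 11462 to 15178 CPM in adventitial fibroblasts and to 2774 to 4281 CPM in the other gated fibroblasts. The 9 Ccl19-type reticular markers outside the gate summed to 267 to 580 CPM in adventitial cells, against 4856 to 16617 CPM in the others. Some other lists did not follow the label. Blood endothelial markers outside the gate summed to 739 to 1236 CPM in adventitial cells and 199 to 428 CPM in the others, with Ly6c1, which is also on the adventitial list, at 719 to 1210 CPM and 142 to 375 CPM. Markers of Mgp, Cilp and Ccn5 fibroblasts summed to 662 to 2016 CPM in adventitial cells and to 688 to 1920 CPM in the others, and were higher in adventitial cells in 3 of 7 sums. Of the 8 epithelial and carcinoma markers, 7 were at 0 in adventitial cells, Epcam, Krt8 and Krt18 among them. Neutrophil markers summed to 12.5 to 26.0 CPM in the stromal library and to 312 to 369 CPM in the myeloid and stromal library, where T cell markers (123 to 186 CPM) and dendritic cell markers (161 to 321 CPM) also lay above the stromal library's 15.2 to 41.6 and 31.2 to 51.6 CPM. Within that library, given as 4T1, 67NR and naive sums, neutrophil markers stood at 369, 368 and 312 CPM, T cell markers at 172, 123 and 186 CPM and dendritic cell markers at 161, 193 and 321 CPM. The library was a term of every test between tumour and naive nodes. Their part in the results was not tested.

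Adventitial cells made up 38.9% of the gated fibroblasts of 4T1 nodes in the stromal library (exact Clopper-Pearson 95% interval 29.9 to 48.6%), 56.9% of 67NR nodes (51.6 to 62.1%), 54.5% of LPS nodes (47.7 to 61.2%) and 25% of naive nodes (17.8 to 33.4%). In the myeloid and stromal library the shares were 48.7% in 4T1 (39.5 to 58.1%), 34.1% in 67NR (27.2 to 41.4%) and 31.1% in naive nodes (22.5 to 40.9%). In the stromal library the intervals of 67NR and LPS overlapped, as did those of 4T1 with naive and with LPS nodes. In the other library the intervals of every pair of conditions overlapped. With every cell thinned to 2000 UMIs the order of conditions within each library was the same, at 15.0% (4T1), 29.4% (67NR), 21.4% (LPS) and 12.5% (naive), and at 18.7% (4T1), 12.3% (67NR) and 11.7% (naive). The whole gate was applied to the thinned counts, exclusions included. That made 1671 cells gated fibroblasts in place of 1225, and 331 adventitial in place of 552. The thinned shares are therefore of another set of cells. With a hashtag ratio of 10 the order changed, to 31.8% (4T1), 36.7% (67NR), 55.1% (LPS) and 16.5% (naive) in the stromal library and to 26.5% (4T1), 10.5% (67NR) and 19.6% (naive) in the other. The sort sets these shares, and cells of a pool are not replicates, so no test was made.

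Adventitial cells differed from the other gated fibroblasts in far more than the gate, and the differences recurred in all 7 sums. Among 10405 genes, 1454 were higher and 1094 lower in adventitial cells in all 7, with 54 and 90 of them at least 4-fold apart in each. Values that follow are the median log2 ratio of CPM with its range over the 7 sums, given without a test because the gate chose the cells. Higher in adventitial fibroblasts were Pdgfc, a growth factor for mesenchymal cells, at 4.57 (3.46 to 7.02), and Sema3c, a guidance cue of vessels and nerves, at 4.09 (3.35 to 4.60). Wnt10b, a Wnt ligand, stood at 3.24 (2.88 to 5.97), and Pcsk6, a protease that activates secreted precursors, at 4.06 (3.09 to 6.02). Ptgis, prostacyclin synthase, stood at 4.30 (2.96 to 5.78), and Ackr2, a scavenger receptor of inflammatory chemokines, at 3.51 (2.98 to 5.15). Smpd3, the neutral sphingomyelinase, was at 4.54 (2.49 to 7.52), and the hydrogen peroxide-forming oxidases Duox1 and Duox2 were at 4.30 (3.23 to 5.07) and 4.13 (1.94 to 5.38). Lower in adventitial cells were Ccl21a, a chemokine of the T zone with near-identical gene copies, at -10.21 (-10.72 to -8.00), Clu, clusterin, at -7.10 (-8.06 to -5.16), and the pericyte gene Rgs5 at -7.10 (-8.85 to -4.71).

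Of the gate's own genes, which are described without a test, Pi16 stood at 1289 and 1397 CPM in 4T1 sums (stromal library first here and below), 1877 and 1209.6 CPM in 67NR, 1261 CPM in LPS and 1396 and 1044 CPM in naive sums. Dpp4 stood at 284 and 398 CPM in 4T1, 437 and 251 CPM in 67NR, 430.2 CPM in LPS and 363 and 280.5 CPM in naive sums. Sfrp2, which the gate did not use, stood at 106 and 356, 294 and 259, 228, and 213 and 271 CPM in the same order. Neither Dpp4 nor Sfrp2 set tumour sums apart from naive ones. Pcolce2, a procollagen-processing enhancer, was lower in all 4 tumour sums, at 444 and 435 CPM in 4T1 and 496 and 350.3 CPM in 67NR, against 793 and 518 CPM in naive sums, with 760.3 CPM in LPS.

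The first comparison asked what differed in adventitial fibroblasts of nodes draining 67NR tumours against naive nodes. It was fitted over the 6 sums of 4T1, 67NR and naive nodes with the library as a block, by the quasi-likelihood test of edgeR, with p-values adjusted by the Benjamini-Hochberg method across the 8999 genes tested, and a gene passed at an adjusted p under 0.05. Of these genes 6 passed (0.0667%), 4 higher (0.0444%) and 2 lower (0.0222%) in 67NR. The higher ones were the collagens Col12a1 and Col8a1 and the chemokines Cxcl2 and Ccl7, and the lower ones were the chemokine Cxcl13 and the interferon-induced membrane protein Ifitm1. None of the 6 passed when either naive sum was left out or when the library block was dropped, and their signs held in each of these fits. Leaving out a 4T1 sum gave 60 or 83 passing genes, all 6 among them, and leaving out a 67NR sum gave 41 (all but Col8a1 among them) or 28 (all but Ccl7). DESeq2 called 57 genes (0.633%), and Col8a1 had no adjusted p there. With a gate of 3 UMIs in place of 5, Cxcl2 did not pass (2.73, adjusted p = 0.174). With cells thinned to 2000 UMIs, 2 of the 6 passed among the 2219 genes tested, and genes under the count filter had no value. With a hashtag ratio of 10 Col8a1 did not pass (3.22, adjusted p = 0.788), and with cells thinned to 2000 UMIs neither Col12a1 (1.41, adjusted p = 0.138) nor Cxcl13 (-2.62, adjusted p = 0.0737) did.

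Col12a1, a collagen that bridges fibrils, stood at 369 and 297 CPM in the 67NR sums and at 74.2 and 77.5 CPM in naive sums, a log2 fold of 2.13 ± 0.26 (SE; adjusted p = 0.0275). Col8a1, a short-chain collagen of vessel walls, stood at 28.1 and 82.6 CPM in 67NR and 1.95 and 1.85 CPM in naive sums (4.79 ± 0.55 SE, adjusted p = 0.0275), and 1 cell gave 81% of its UMIs in the 67NR sum of the myeloid and stromal library. Neither collagen overlapped between the groups. Here and below, genes were named partly for a low p, a large fold or 1 sign in both libraries, which favours such a gap. In this comparison 5226 of the 8999 genes tested had the sign of their fold in both libraries. The share of all genes without overlap was not counted. In GENCODE vM21 on GRCm38 the gene Col12a1 lies at chr9:79598991-79718831 and Col8a1 at chr16:57624258-57754737, both on the minus strand.

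Cxcl2, a neutrophil-attracting chemokine (chr5:90903871-90905938, plus strand), stood at 282 and 732 CPM in 67NR against 29.3 and 25.8 CPM in naive sums, a log2 fold of 4.13 ± 0.51 (SE; adjusted p = 0.0275). Ccl7, a chemokine that draws monocytes through Ccr2 (chr11:82045712-82047525, plus strand), stood at 961 and 2173 CPM against 248 and 936 CPM in naive sums (1.56 ± 0.21 SE, adjusted p = 0.0387). Neither chemokine overlapped between the groups, though the lower 67NR sum of Ccl7 stood just above the higher naive sum. Cxcl13, the chemokine that draws B cells to follicles (chr5:95956951-95961068, plus strand), stood at 15.0 and 40.5 CPM in 67NR against 338 and 194 CPM in naive sums, and fell by 3.44 ± 0.44 on the log2 scale (SE; adjusted p = 0.0296). Single cells gave 73.5% of the UMIs of Cxcl13 in the 67NR sum and 62.9% in the naive sum of the myeloid and stromal library. The markers of marginal and follicular stromal cells, a list that holds Cxcl13, summed to 55.1 and 102 CPM in 67NR and to 398 and 273 CPM in naive adventitial sums, and their part in this result was not tested. Ifitm1 (chr7:140967221-140969825, plus strand) stood at 14.4 and 15.7 CPM in 67NR against 82.0 and 79.3 CPM in naive sums, with no overlap (-2.45 ± 0.28 SE, adjusted p = 0.0275).

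**Figure D1:**
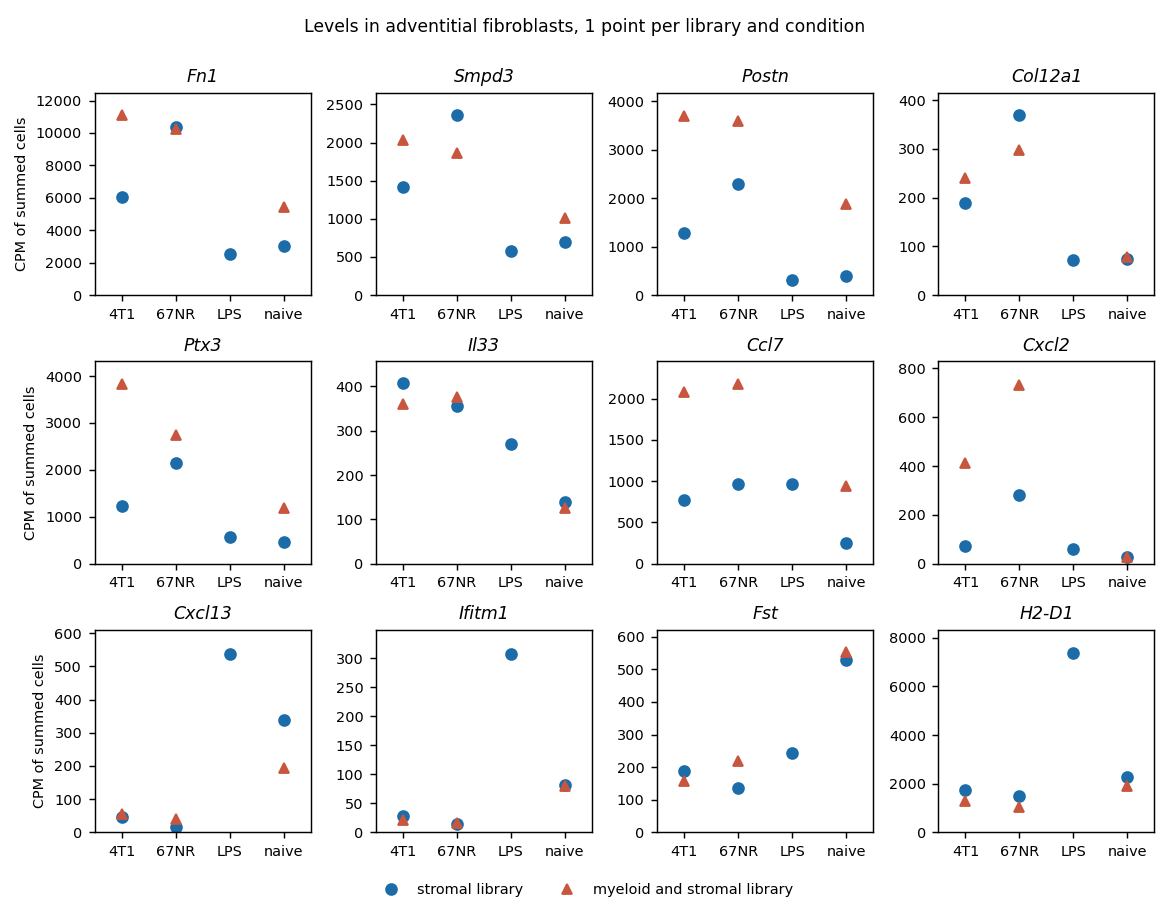
Levels of 12 genes in adventitial fibroblasts, in CPM of the summed cells, for 4T1, 67NR, LPS and naive nodes. Each point is 1 sum, a circle for the stromal library and a triangle for the myeloid and stromal library, which had no LPS. Both 4T1 and both 67NR points of Col12a1 and Il33 lie above the naive points, and the LPS points of H2-D1 and Ifitm1 lie above all others.

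Genes next in order of p in this comparison did not pass, and their values are given as such. Il33, an alarmin cytokine of stromal cells, stood at 356 and 377 CPM in 67NR against 139 and 125 CPM in naive sums, a log2 fold of 1.46 ± 0.22 (SE; adjusted p = 0.0553). Duox2 stood at 181 and 188 CPM against 46.9 and 49.8 CPM (1.94 ± 0.30 SE, adjusted p = 0.0553), and Fn1, fibronectin, at 10385 and 10270.0 CPM against 3023 and 5442 CPM (1.37 ± 0.22 SE, adjusted p = 0.0608). Smpd3 stood at 2368 and 1868 CPM against 697 and 1017 CPM (1.33 ± 0.24 SE, adjusted p = 0.0745). For these 4 genes both 67NR sums lay above both naive sums. Postn, the matricellular protein periostin, stood at 2287 and 3587 CPM against 395 and 1888 CPM (1.72 ± 0.31 SE, adjusted p = 0.0745), with a gap between groups that was smaller than the gap between the naive libraries. Among genes lower in 67NR, Fst, the activin antagonist follistatin, stood at 137 and 219 CPM against 529 and 554 CPM (-1.64 ± 0.25 SE, adjusted p = 0.0553). Apoe, apolipoprotein E, stood at 359 and 656 CPM against 1713 and 1474 CPM (-1.68 ± 0.30 SE, adjusted p = 0.0738), and Igfbp3, which binds insulin-like growth factors, at 18.5 and 45.4 CPM against 80.1 and 116 CPM (-1.73 ± 0.28 SE, adjusted p = 0.0608). The groups did not overlap for these 3 genes.

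Gene lists were described by counts at an unadjusted p under 0.05, which 5.43% of all 8999 genes reached as higher and 5.09% as lower in 67NR. Of the 22 fibrillar and beaded collagens and collagen-processing genes tested, 11 were higher and 0 lower in 67NR at that level, 1 of them passing, with a median log2 fold of 0.60 against a median of -0.02 over all genes. Their summed level was 14964 and 16795 CPM in 67NR and 6818 and 11983 CPM in naive sums. Elastic fibre and microfibril genes had 8 higher and 3 lower of 18, and proteoglycans and matricellular genes 8 higher and 0 lower of 22 (median 0.57). Basement membrane genes had 0 in either direction of 13. MHC class I presentation genes had 0 higher and 11 lower of 16, with a median of -0.74, none passing. H2-T23, a nonclassical class I gene, stood at 166 and 107 CPM in 67NR against 301 and 232 CPM in naive sums (-0.99 ± 0.21 SE, adjusted p = 0.0906), and Psmb9, an immunoproteasome subunit, at 41.3 and 27.3 CPM against 102 and 73.8 CPM (-1.38 ± 0.25 SE, adjusted p = 0.0738). Type I interferon response genes had 0 higher and 6 lower of 20, with a median of -0.73. In the stromal library alone the medians of the log2 ratios were -0.63 for MHC class I genes and -0.02 for interferon genes. In the naive sum of the other library 1 cell gave 33.6% of the UMIs of the interferon gene Isg15. Growth factors and their receptors had 0 higher and 10 lower of 19 (median -0.75), immediate early genes 0 higher and 7 lower of 19, and heat shock genes 1 higher and 3 lower of 12.

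Against naive nodes, 4T1 nodes gave 0 passing genes of 8999 (0%) by the same edgeR test, with 811 genes (9.01%) at an unadjusted p under 0.05, 427 of them higher and 384 lower. DESeq2 called 36 (0.4%), 26 higher and 10 lower, and edgeR gave 48 without the 4T1 sum of the stromal library, 10 without that of the other library, 61 without the 67NR sum of the stromal library and 1 without its naive sum. The lowest adjusted p was 0.0664, so the values that follow are given as not passing. 4T1 and 67NR were set against the same naive sums, and their folds are therefore not independent. Il33 stood at 408 and 361 CPM in 4T1 sums, a log2 fold of 1.55 ± 0.22 (SE; adjusted p = 0.0706) over the naive levels above, and Col12a1 at 189 and 241 CPM (1.52 ± 0.27 SE, adjusted p = 0.127). Ptx3, a secreted pattern-recognition protein, stood at 1227 and 3826 CPM in 4T1 against 469 and 1185 CPM in naive sums (1.58 ± 0.29 SE, adjusted p = 0.134), and Ntn4, a netrin of basement membranes, at 198 and 136 CPM against 66.4 and 51.7 CPM (1.5 ± 0.24 SE, adjusted p = 0.0912). Fn1 stood at 6026 and 11129 CPM (1.03 ± 0.22 SE, adjusted p = 0.19) and Smpd3 at 1423 and 2028 CPM (1.03 ± 0.24 SE, adjusted p = 0.205). All 4T1 sums of these genes lay above both naive sums. For Ptx3 and Fn1 the gap between the groups was smaller than the gap between the naive libraries.

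The genes named next stood lower in the 4T1 sums, and none of them passed. Hsph1, a heat shock protein, stood at 40.1 and 33.6 CPM in 4T1 against 169.9 and 172 CPM in naive sums (-2.21 ± 0.26 SE, adjusted p = 0.0664). Igfbp3 stood at 15.0 and 18.6 CPM against 80.1 and 116 CPM (-2.54 ± 0.33 SE, adjusted p = 0.0664), and Fst at 189 and 157 CPM against 529 and 554 CPM (-1.64 ± 0.25 SE, adjusted p = 0.0912). Smoc2, a matricellular protein, stood at 76.4 and 40.1 CPM against 191 and 210.3 CPM (-1.86 ± 0.31 SE, adjusted p = 0.11). No 4T1 sum of these 4 genes reached a naive sum, and 1 cell gave 50.9% of the UMIs of Smoc2 in the naive sum of the myeloid and stromal library. The 8 markers of Cxcl14 and Smoc2 fibroblasts summed to 702 and 573 CPM in 4T1, 528 and 549 CPM in 67NR, 543 CPM in LPS and 1092 and 948 CPM in naive adventitial sums, and their part in the level of Smoc2 was not tested. Ifitm1 stood at 27.6 and 21.4 CPM in 4T1 (-1.72 ± 0.29 SE, adjusted p = 0.11) and Cxcl13 at 47.6 and 54.1 CPM (-2.39 ± 0.43 SE, adjusted p = 0.134), below both naive sums given above. At an unadjusted p under 0.05, which 4.74% of all genes reached as higher and 4.27% as lower, collagens had 10 higher and 0 lower of 22 (median 0.43), MHC class I genes 1 higher and 7 lower of 16 (median -0.49), heat shock genes 0 higher and 8 lower of 12 (median -0.57), interferon genes 0 higher and 6 lower of 20, and growth factors 0 higher and 7 lower of 19. The median over all genes was -0.00372. In the stromal library alone the interferon median was 0.24 for 4T1, of the opposite sign, with 11 of 16 measured genes above 0, against a median of 0.11 over all genes there.

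**Figure D2:**
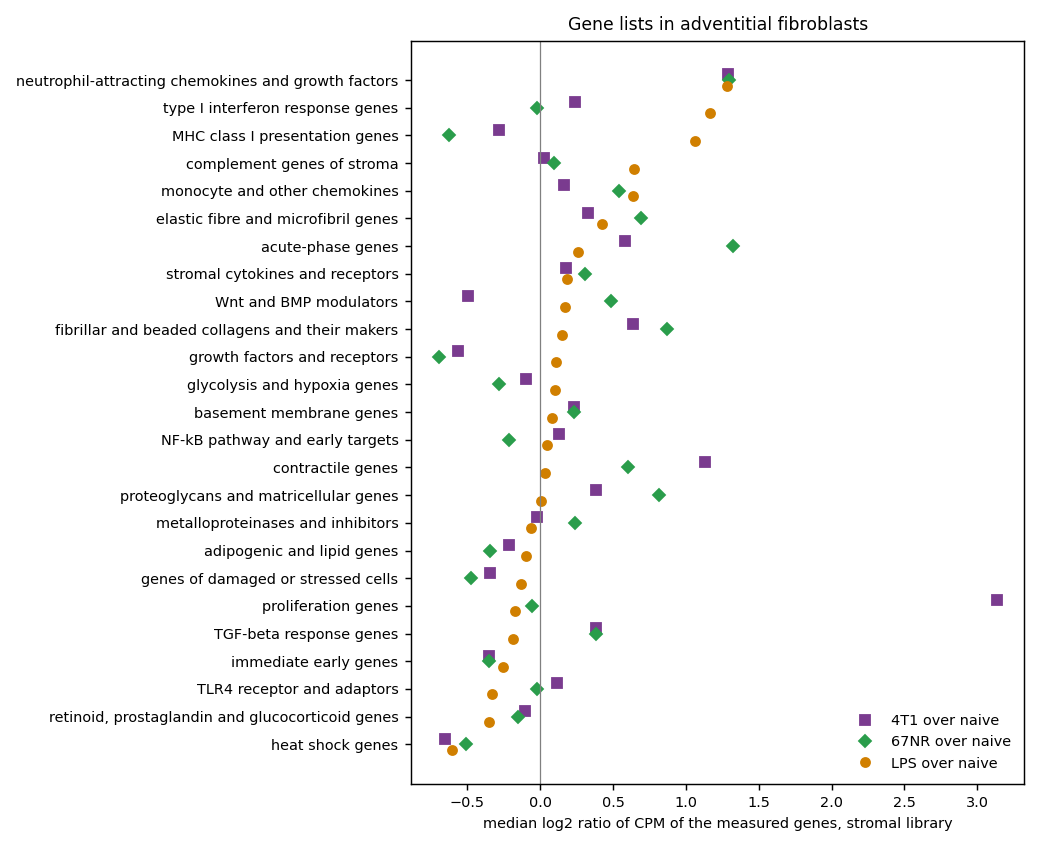
Median log2 ratio of CPM over naive cells of the stromal library, for the measured members of each gene list in adventitial fibroblasts. Points are 4T1, 67NR and LPS nodes. The collagen list lies at 0.64 (4T1), 0.87 (67NR) and 0.15 (LPS). The MHC class I list lies at -0.28 (4T1), -0.63 (67NR) and 1.06 (LPS). The tumour medians of the tests in the text cover both libraries.

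Set against each other, 4T1 and 67NR nodes gave 0 passing genes (0%) by edgeR, with 304 genes (3.38%) at an unadjusted p under 0.05, and DESeq2 called 0. Without a 4T1 sum edgeR gave 2 (myeloid and stromal library) or 10 (stromal library), and without the 67NR sum of the stromal library 8. The lowest adjusted p belonged to Col8a1, which stood at 2.51 and 7.46 CPM in 4T1 and at 28.1 and 82.6 CPM in 67NR, a log2 fold of -3.39 ± 0.39 (SE; adjusted p = 0.0634), with the cell of high Col8a1 in the 67NR sum as given above. Hsph1 stood at 40.1 and 33.6 CPM in 4T1 and 111 and 71.1 CPM in 67NR (-1.28 ± 0.25 SE, adjusted p = 0.862), and Wnt2, a Wnt ligand, at 15.0 and 30.8 CPM against 45.4 and 62.0 CPM (-1.22 ± 0.29 SE, adjusted p = 1). Igfbp5, a further binding protein of insulin-like growth factors, stood at 1268 and 918 CPM in 4T1 and 815 and 319.8 CPM in 67NR (1.10 ± 0.24 SE, adjusted p = 0.962), and the transcription factor Runx1 at 71.4 and 69.9 CPM against 27.5 and 39.7 CPM (1.13 ± 0.24 SE, adjusted p = 0.961). The groups did not overlap for these 5 genes, and none passed. As above, the share of all genes without overlap was not counted.

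LPS was present in the stromal library alone, with 1 sum, so LPS nodes were set against the naive sum of that library without a test. Values are log2 ratios of CPM with their 95% intervals (exact conditional binomial), for counting error alone and not the spread between mice. Among the 8629 genes whose higher sum held 20 UMIs or more, 694 were 2-fold or more apart (8.04%), 501 higher (5.81%) and 193 lower (2.24%) in LPS, and 410 of the 694 had an interval that excluded 0. The LPS sum held 2178058 UMIs and the naive sum 512003, so the minimum favours genes higher in LPS. By the same measure in this library, 67NR over naive had 1226 of 9667 genes 2-fold or more apart, and 4T1 over naive 556 of 5884. These counts are not on the scale of the edgeR calls above. They also move with the size of the sums, which held 3197107 UMIs in 67NR and 798163 in 4T1. The lists with the highest median ratios were neutrophil-attracting chemokines and growth factors, interferon response genes, MHC class I genes and complement genes.

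Of the 24 type I interferon response genes 22 were measured, and 13 of them were at least 2-fold higher in LPS and 0 lower, with a median log2 ratio of 1.17 against -0.00136 over all genes. Ifit1, an antiviral RNA-binding protein, held 545 UMIs in LPS and 8 in naive cells, or 250.2 against 15.6 CPM, a log2 ratio of 4.0 (3.01 to 5.22). Irf7, a transcription factor of interferon induction, stood at 184 CPM in LPS and 44.9 CPM in naive cells (2.04, interval 1.43 to 2.71), and Isg15, a ubiquitin-like modifier, at 250.2 and 113 CPM (1.14, interval 0.75 to 1.56). Rsad2, the antiviral protein viperin, held 75 UMIs in LPS and 0 in naive cells, a log2 ratio of at least 2.56 with the naive count set at a floor of 3 UMIs. The naive sum of the other library held 137 CPM of Ifit1, 236 CPM of Isg15 and 44.3 CPM of Rsad2, of which 1 cell gave 75%, so the naive levels of these genes differed between libraries more than those of Irf7 (53.5 CPM).

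Of the 16 MHC class I presentation genes 8 were at least 2-fold higher in LPS and 0 lower, with a median of 1.06, and their summed level was 17211 CPM in LPS and 6398 CPM in naive cells. H2-D1, a classical heavy chain, stood at 7384 CPM in LPS and 2285 CPM in naive cells (1.69, interval 1.61 to 1.78). H2-K1, also a classical heavy chain, stood at 2721 and 799 CPM (1.77, interval 1.62 to 1.92). B2m, the light chain, stood at 5083 CPM in LPS and 2023 CPM in naive cells (1.33, interval 1.24 to 1.42), and Tap1, a peptide transporter subunit, at 44.1 and 5.86 CPM on 3 naive UMIs (2.91, interval 1.32 to 5.21). Class I genes are near-identical in sequence, so the split of UMIs among H2-D1, H2-K1 and their relatives is uncertain. The LPS sum of H2-D1 lay above all other sums, with 1732 and 1304 CPM in 4T1, 1497 and 1036 CPM in 67NR and 1915 CPM in the other naive sum.

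**Figure D3:**
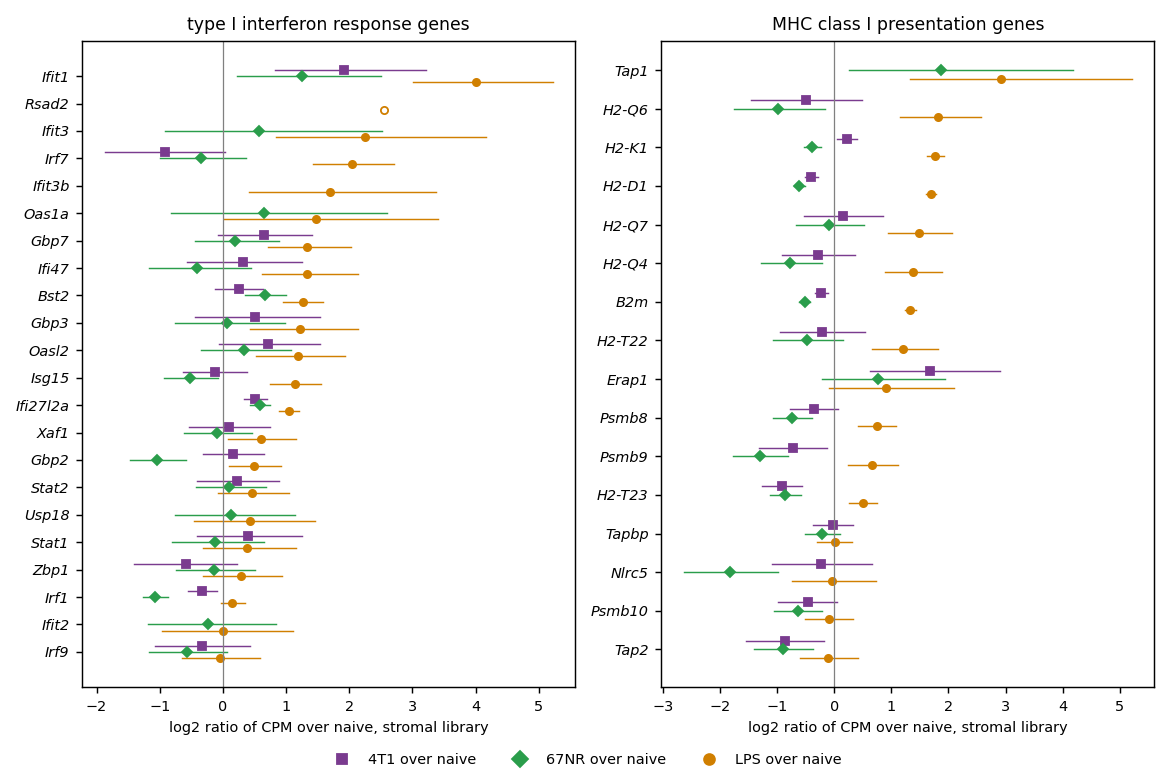
Log2 ratios of CPM over naive cells of the stromal library for interferon response genes and MHC class I presentation genes, for 4T1, 67NR and LPS nodes. Bars are exact 95% intervals for counting error, and an open marker is a bound for a gene with no naive UMI. H2-D1 lies at 1.69 in LPS.

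The promoters of 4 of these genes are shown because motifs known from interferon and NF-kappaB signalling occur in them. Each is 300 bases, 250 before and 50 after the transcription start, 5′ to 3′ on the gene's strand, from RefSeq on GRCm38.p6, with matches in capitals. The motifs were the core of the interferon-stimulated response element (ISRE), GAAANNGAAA, and the NF-kappaB consensus, each on both strands. Ifit1 lies at chr19:34640639-34640938 (plus strand, 2 ISRE core matches), Isg15 at chr4:156200769-156201068 (minus strand, 3 overlapping ISRE core matches), B2m at chr2:122147437-122147736 (plus strand, 1 ISRE core and 1 NF-kappaB match) and Cxcl2 at chr5:90903649-90903948 (plus strand, 2 overlapping NF-kappaB matches).
Ifit1: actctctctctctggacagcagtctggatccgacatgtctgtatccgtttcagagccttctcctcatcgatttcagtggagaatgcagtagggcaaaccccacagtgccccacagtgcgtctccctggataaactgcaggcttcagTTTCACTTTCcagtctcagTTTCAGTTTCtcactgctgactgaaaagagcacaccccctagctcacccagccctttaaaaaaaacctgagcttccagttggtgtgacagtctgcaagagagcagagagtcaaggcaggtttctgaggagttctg
Isg15: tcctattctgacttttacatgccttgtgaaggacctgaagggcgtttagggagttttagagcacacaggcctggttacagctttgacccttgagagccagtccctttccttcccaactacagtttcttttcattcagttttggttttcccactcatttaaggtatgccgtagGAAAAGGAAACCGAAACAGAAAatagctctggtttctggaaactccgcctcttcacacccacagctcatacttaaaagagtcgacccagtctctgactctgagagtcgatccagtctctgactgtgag
B2m: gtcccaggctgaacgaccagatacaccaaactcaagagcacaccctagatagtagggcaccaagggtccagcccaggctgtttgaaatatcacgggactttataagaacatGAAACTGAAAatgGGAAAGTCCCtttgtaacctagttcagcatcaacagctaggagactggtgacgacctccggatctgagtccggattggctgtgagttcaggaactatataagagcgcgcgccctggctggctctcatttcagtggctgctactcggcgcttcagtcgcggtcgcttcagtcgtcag
Cxcl2: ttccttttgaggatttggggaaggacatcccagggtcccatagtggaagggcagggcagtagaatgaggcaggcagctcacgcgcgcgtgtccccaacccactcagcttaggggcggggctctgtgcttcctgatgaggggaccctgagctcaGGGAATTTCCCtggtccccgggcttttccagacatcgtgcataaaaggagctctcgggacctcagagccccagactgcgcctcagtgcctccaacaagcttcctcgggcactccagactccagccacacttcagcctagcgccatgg
The ISRE core was found in 3.99% of the 27025 genes with such a promoter and the NF-kappaB consensus in 9.55%. Of the 13 interferon genes at least 2-fold higher in LPS, 12 had a promoter and 9 of these held the ISRE core (75%), as did 11 of 18 on the whole interferon list (61.1%). Of the MHC class I genes, 14 had a promoter, 4 held the ISRE core (28.6%) and 7 the NF-kappaB consensus (50%). Of the 6 genes that passed in 67NR, 4 had a promoter, 0 held the ISRE core and Cxcl2 held the NF-kappaB consensus. The interferon list was made of genes known to respond to interferon, so its share describes the list and not an effect of LPS. A match describes these letters and not a bound site.

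Complement and chemokine genes were also higher in the LPS sum than in the naive sum of the stromal library. Of 12 complement genes measured, 5 were at least 2-fold higher and 0 lower (median 0.65). Cfb, factor B of the alternative pathway, stood at 511 CPM in LPS and 85.9 CPM in naive cells (2.57, interval 2.14 to 3.04), and C4b, of the classical pathway, at 607 and 234 CPM (1.37, interval 1.10 to 1.66). Of 12 monocyte-attracting and other chemokines measured, 5 were at least 2-fold higher and 0 lower (median 0.63). Of the 4 neutrophil-attracting chemokines and growth factors measured, 3 were at least 2-fold higher (median 1.28), and Il6, an inflammatory cytokine of that list, stood at 226 and 80.1 CPM (1.5, interval 1.04 to 1.99). The summed level of that list was 2743 CPM in LPS, between the naive sums of 2184 (stromal library) and 3410 CPM. The monocyte and other chemokines summed to 6045 CPM in LPS and to 3957 and 5945 CPM in naive sums. The complement list summed to 9324 CPM in LPS and to 5779 and 5559.5 CPM in naive sums. Cxcl10, which draws activated T cells, stood at 595 and 174 CPM (1.78, interval 1.46 to 2.10), with 1 cell giving 49.4% of the naive UMIs. Cxcl9, a related ligand, held 172 UMIs in LPS, 34.3% of them from 1 cell, and 2 in naive cells (4.34, interval 2.46 to 7.39). The cartilage-matrix gene Cilp had the highest ratio, with 159 UMIs in LPS, 35.8% of them from 1 cell, and 1 in naive cells (5.22, interval 2.73 to 10.54).

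Some genes were lower in the LPS sum. Duox2 stood at 7.35 CPM in LPS and 46.9 CPM in naive cells (-2.67, interval -3.68 to -1.70), on 16 and 24 UMIs. Smoc2 stood at 44.1 and 191 CPM (-2.12, interval -2.54 to -1.70), Hsph1 at 55.6 and 169.9 CPM (-1.61, interval -2.02 to -1.2) and Fst at 243 and 529 CPM (-1.12, interval -1.33 to -0.90). Cdh9, a cadherin, stood at 10.6 CPM in LPS and 193 CPM in naive cells (-4.19, interval -4.92 to -3.53), with 87.9% of the naive UMIs from 1 cell. Heat shock genes had 4 of 12 at least 2-fold lower and 0 higher (median -0.60). Collagens had 0 of 22 past 2-fold in either direction (median 0.15), with 7719 CPM in LPS against 6818 CPM in naive cells, and Fn1 stood at 2510.5 and 3023 CPM.

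Set against the LPS sum of the same library, 4T1 cells had 734 of 8667 genes 2-fold or more apart (8.47%) and 67NR cells 826 of 9811 (8.42%), without a test. Fn1 was higher in both, at 6026 CPM in 4T1 and 10385 CPM in 67NR against 2510.5 CPM in LPS, log2 ratios of 1.26 (1.21 to 1.32) and 2.05 (2.01 to 2.09). Smpd3 stood at 1423 CPM in 4T1 and 2368 CPM in 67NR against 579 CPM in LPS (1.30, interval 1.18 to 1.41, in 4T1 and 2.03, interval 1.95 to 2.12, in 67NR). Duoxa2, the maturation factor of Duox2, stood at 25.1 CPM in 4T1 and 58.8 CPM in 67NR, and held 2 UMIs in LPS (4.77, interval 2.73 to 7.91, in 4T1 and 6.0, interval 4.13 to 9.06, in 67NR). Lower in the tumour nodes were Cxcl13, at 47.6 CPM in 4T1 and 15.0 CPM in 67NR against 538 CPM in LPS (-3.50, interval -4.0 to -3.03, in 4T1 and -5.16, interval -5.61 to -4.75, in 67NR), and Ifitm1, at 27.6 and 14.4 CPM against 308 CPM (-3.48, interval -4.17 to -2.87, in 4T1 and -4.42, interval -4.88 to -3.99, in 67NR). H2-D1 differed by -2.09 (-2.17 to -2.01) in 4T1 and -2.30 (-2.35 to -2.26) in 67NR. MHC class I genes had 0 higher and 10 lower of 16 in 4T1, and 0 higher and 12 lower of 16 in 67NR, where 3.44% (4T1) and 5.53% (67NR) of all genes were higher and 5.03% (4T1) and 2.88% (67NR) lower. Mki67, a gene of dividing cells, held 67 UMIs in 4T1 and 0 in LPS, and 2 of 42 4T1 cells held at least 2 UMIs of it after thinning to 5000 UMIs.

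Chemokines and the Tlr4 complex bear on the question in the title. Ccl2, the main ligand of Ccr2 on monocytes, stood at 1280.4 and 2159.6 CPM in 4T1, 973 and 3624 CPM in 67NR, 1139.5 CPM in LPS and 502 and 1657 CPM in naive sums. Each tumour sum lay above the naive sum of its own library, the groups overlapped across libraries, and neither fold passed, at 0.90 ± 0.25 (SE; adjusted p = 0.311) for 4T1 and 1.04 ± 0.25 (SE; adjusted p = 0.12) for 67NR. Ccl7 stood at 773 and 2085 CPM in 4T1 (1.38 ± 0.21 SE, adjusted p = 0.0883) and at 968 CPM in LPS, against the naive levels of 248 and 936 CPM (1.96, interval 1.71 to 2.23, for LPS in the stromal library). Ccl11, eotaxin, stood at 1792 and 2529 CPM in 4T1, 2188 and 2339 CPM in 67NR, 1435 CPM in LPS and 1502 and 1563 CPM in naive sums. Its folds did not pass (0.49 ± 0.19 SE, adjusted p = 0.475 for 4T1, and 0.55 ± 0.19 SE, adjusted p = 0.306 for 67NR).

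Tlr4 was measured in all 7 sums, at 109 and 105 CPM in 4T1, 110.4 and 113 CPM in 67NR, 78.1 CPM in LPS and 107 and 88.6 CPM in naive sums. The LPS sum was the lowest, and the tumour sums lay within or just above the range of the naive sums. Ly96, the co-receptor MD-2, stood at 13.8 and 14.9 CPM in 4T1, 12.2 and 9.09 CPM in 67NR, 20.2 CPM in LPS and 25.4 and 18.5 CPM in naive sums. Of the 12 genes tested on the list of the Tlr4 receptor and adaptors, 0 reached an unadjusted p under 0.05 in 4T1, and 0 as higher and 2 as lower did in 67NR. Cd14, a co-receptor that myeloid cells also make, stood at 1.25 to 4.13 CPM in the 4 sums of the stromal library and at 16.6 to 21.4 CPM in the other, where myeloid markers were higher as given above.

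Counts per cell were compared after cells were thinned to 5000 UMIs each, which left out 2 of 44 cells of 4T1, 16 of 202 of 67NR, 2 of 121 of LPS and 0 of 32 of naive nodes in the stromal library, and 5 of 58, 2 of 62 and 2 of 33 in the other (4T1, 67NR, naive). The 7 genes drawn were picked with their values known. In the stromal library the median Fn1 count was 31.5 (4T1), 50 (67NR), 9 (LPS) and 10 (naive), and in the other 56 (4T1), 52 (67NR) and 20 (naive). Median Smpd3 counts were 8, 11, 1 and 1.5 in the stromal library in the same order, and 9, 10 and 3 in the other. At least 2 UMIs of Smpd3 were held by 66.7% of 4T1, 83.3% of 67NR, 46.2% of LPS and 50% of naive cells in the stromal library, and by 92.5%, 83.3% and 58.1% in the other. Before thinning the 4T1 share of the stromal library was 72.7%. Median H2-D1 counts were 8.5 (4T1), 6 (67NR), 34 (LPS) and 10 (naive) in the stromal library. Sfrp2 medians were 0 or 1 in all 7 sums.

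Whether tumour nodes differed from naive nodes in the same way in adventitial and in other gated fibroblasts was tested as the interaction of class and condition, over 12 sums, with each library and condition as a block. Of 10380 genes, 10 passed for 4T1 (0.0963%), 3 with a more positive (0.0289%) and 7 with a more negative fold (0.0674%) in adventitial cells. For 67NR 10 passed as well (0.0963%), 2 more positive (0.0193%) and 8 more negative (0.0771%). Ifitm1 stood at 807 and 1143 CPM in 4T1, 869 and 947 CPM in 67NR and 532 and 676 CPM in naive sums of other fibroblasts, where it was higher with tumour, while it was lower with tumour in adventitial cells. The difference between the log2 folds was -2.44 ± 0.30 (SE; adjusted p = 0.0129) for 4T1 and -3.07 ± 0.30 (SE; adjusted p = 0.00269) for 67NR. Cxcl13 stood at 812 and 3421 CPM in 4T1, 384 and 325 CPM in 67NR and 93.7 and 234 CPM in naive sums of other fibroblasts, with a difference of -5.89 ± 0.66 (SE; adjusted p = 0.0121) for 4T1 and -4.69 ± 0.66 (SE; adjusted p = 0.0365) for 67NR. Without the block by library and condition, 2 and 1 genes passed, Ifitm1 among them in both. With a gate of 3 UMIs the difference of Ifitm1 for 4T1 did not pass (-1.88, adjusted p = 0.0929).

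Srgn, the proteoglycan serglycin, stood in adventitial cells at 31.3 and 84.9 CPM in 4T1, 26.0 and 69.4 CPM in 67NR and 46.9 and 125 CPM in naive sums, and in other fibroblasts at 304 and 697, 349 and 404, and 105 and 217 CPM in the same order. Its differences were -2.22 ± 0.34 (SE; adjusted p = 0.0326) for 4T1 and -2.16 ± 0.33 (SE; adjusted p = 0.0396) for 67NR. Ier3, an early response gene, stood at 238 and 183 CPM in 67NR and 269.5 and 260.2 CPM in naive adventitial sums, against 1007 and 1181 CPM in 67NR and 415 and 352 CPM in naive sums of other fibroblasts, a difference of -1.86 ± 0.27 (SE; adjusted p = 0.0365). The other gated fibroblasts hold several types, Ccl19-type reticular cells among them, whose shares in each condition were not modelled.

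**Figure D4:**
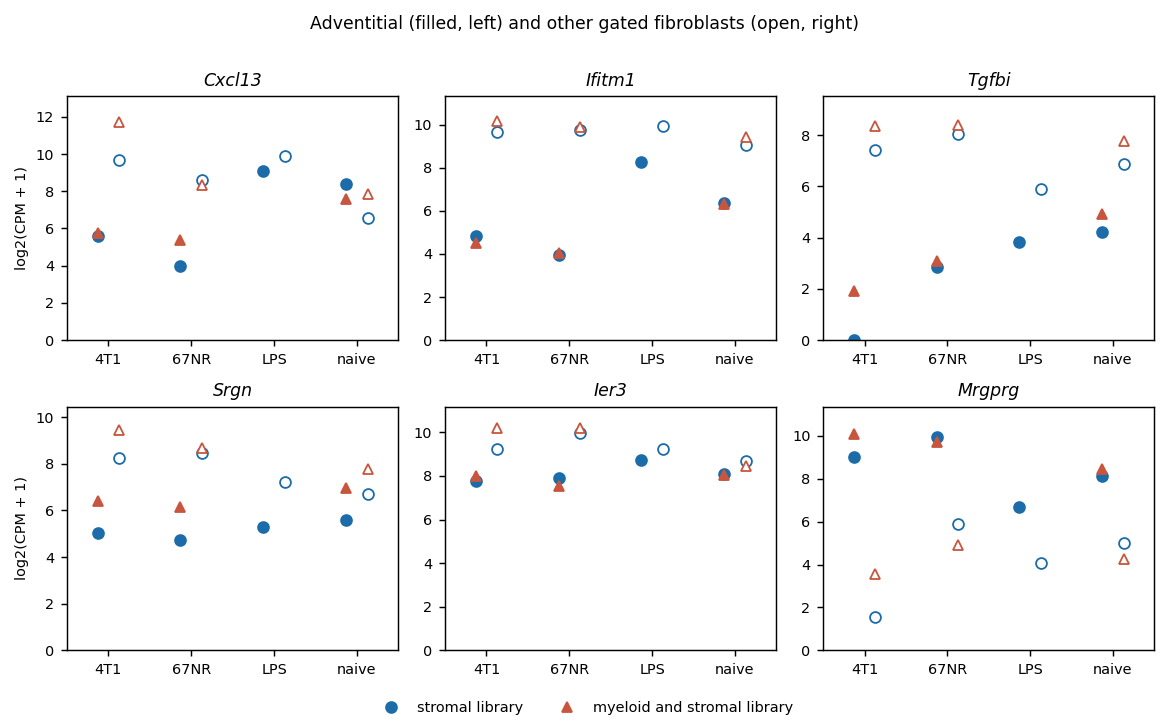
Levels of 6 genes on the log2(CPM + 1) scale in adventitial fibroblasts (filled) and other gated fibroblasts (open) for 4T1, 67NR, LPS and naive nodes, with circles for the stromal library and triangles for the myeloid and stromal library. Filled Ifitm1 points of 4T1 and 67NR lie below the filled naive points, and open ones above the open naive points.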

How the data were processed

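Single cells of mouse axillary lymph nodes were profiled with a 3′ droplet kit, per the labels' protocols. The authors deposited UMI counts per gene and hashtag and barcode, not normalized, for which the submitters' processing notes name Cell Ranger 7.0 and mm10. Annotation and cell calling: not given in the sources used here. There were 32285 genes in each library, and no barcode had under 500 UMIs. Cells passing the UMI and mitochondrial limits numbered 2540 in the stromal and 6530 in the myeloid and stromal library. Of these, 2353 and 5413 had 1 hashtag at 3 times the next or more. Droplets with mixed hashtags (7.28% and 17.1%) were removed as possible doublets. In adventitial cells the second hashtag had medians of 46 to 62 over the 7 sums. The top hashtag had a median of 2819 in LPS and of 320.5 to 712.5 in the other sums. A ratio of 10 kept 118 of 121 LPS cells. It kept 28 of 44 (4T1), 81 of 202 (67NR) and 13 of 32 (naive) in the stromal library, and 13 of 58, 9 of 62 and 11 of 33 in the other. Doublets within a condition stayed in, and no other caller was run. The name of each hashtag in the deposited feature table gave the condition. No hashtag named poly(I:C), which was not analysed here.

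UMIs were summed per library and condition over adventitial cells, with at least 10 cells a sum. Condition tests used edgeR 4.0.16 in R 4.3.3 over 6 sums, blocked by library, after filterByExpr and TMM scaling, with 2 residual degrees of freedom. The biological coefficient of variation was 0.177. Conditions of a library were prepared together, which is where the pairing comes from. The interaction used 12 sums. Genes of the gate stayed in the fits and out of the counts. LPS comparisons used CPM ratios with exact conditional binomial 95% intervals, where 0 UMIs in a sum were replaced by a floor of 3. The scripts were tested on simulated counts. DESeq2 1.42.0 was an alternative, as were other gates, hashtag ratios, filters and left-out sums. Tables were made with Python 3.11.15 and scipy 1.17.1, and positions are from GENCODE on GRCm38, the assembly that mm10 names.

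The members, gene lists, comparisons and tests were chosen with earlier results of these data known. Genes were named by rule: up to 12 in each direction that passed with 1 sign in both libraries and 10 UMIs in the higher group, filled by lowest p to 8, and for ratios the 12 highest and 12 lowest with 20 UMIs. To these came up to 4 members of each list with the largest fold, the gate's genes and named chemokines and Tlr4 genes, of which the text gives a part. Intervals cover counting error only.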

Additional observations from a re-analysis of the deposited data

Results flagged for a closer look

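The results given here are genes whose tumour effect differed between adventitial and other gated fibroblasts by a test of the difference itself (quasi-likelihood test of edgeR, p adjusted by the Benjamini-Hochberg method), with the same sign of the difference in both libraries. Values are the log2 fold over naive nodes in adventitial cells minus that in other fibroblasts.

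For 4T1, Tac1, the precursor of substance P, differed by 8.05 ± 0.96 (SE; adjusted p = 0.0124), and its levels were 23.8 and 56.9 CPM in 4T1 and 0 and 9.23 CPM in naive adventitial sums, against 16.4 and 7.24 CPM in 4T1 and 45.4 and 151 CPM in naive sums of other fibroblasts. Fabp4, a fatty acid binding protein of fat and capillary cells, differed by 4.45 ± 0.69 (SE; adjusted p = 0.0339), at 17.5 and 33.6 CPM in 4T1 and 3.91 and 16.6 CPM in naive adventitial sums, against 48.3 and 3.62 CPM and 155 and 115 CPM in other fibroblasts. Mrgprg, an orphan receptor, differed by 3.28 ± 0.50 (SE; adjusted p = 0.0326), at 511 and 1094 CPM in 4T1 and 281 and 349 CPM in naive adventitial sums, against 1.93 and 10.9 CPM and 31.5 and 18.0 CPM in other fibroblasts. Cxcl13 differed by -5.89 ± 0.66 (SE; adjusted p = 0.0121), Ifitm1 by -2.44 ± 0.30 (SE; adjusted p = 0.0129) and Srgn by -2.22 ± 0.34 (SE; adjusted p = 0.0326), with levels as given in the report.

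Car4, a carbonic anhydrase, differed by -4.55 ± 0.68 (SE; adjusted p = 0.0326), at 67.7 and 352 CPM in 4T1 and 33.2 and 219.6 CPM in naive adventitial sums, against 14.5 and 141 CPM and 1.85 and 1.2 CPM in other fibroblasts. Car4 was thus higher with 4T1 in both classes, and the size of its difference rests on very low naive levels in other fibroblasts. Tgfbi, a matrix protein induced by TGF-beta, differed by -4.49 ± 0.66 (SE; adjusted p = 0.0326), on 0 and 3 UMIs in 4T1 and 9 and 16 UMIs in naive adventitial sums.

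For 67NR, Tac1 differed by 8.83 ± 0.97 (SE; adjusted p = 0.0049), on 0 and 5 UMIs in naive adventitial sums. Cxcl13 differed by -4.69 ± 0.66 (SE; adjusted p = 0.0365), Ifitm1 by -3.07 ± 0.30 (SE; adjusted p = 0.00269), Srgn by -2.16 ± 0.33 (SE; adjusted p = 0.0396) and Ier3 by -1.86 ± 0.27 (SE; adjusted p = 0.0365), with levels as given in the report. Dlg2, a scaffold protein, differed by -3.65 ± 0.56 (SE; adjusted p = 0.0396), at 1.25 and 4.96 CPM in 67NR and 5.86 and 40.6 CPM in naive adventitial sums, against 96.1 and 103 CPM and 52.9 and 57.5 CPM in other fibroblasts. Fgl2, a fibrinogen-like protein, differed by -2.90 ± 0.45 (SE; adjusted p = 0.0396), at 28.8 and 53.7 CPM in 67NR and 78.1 and 79.3 CPM in naive adventitial sums, against 54.7 and 82.2 CPM and 23.2 and 14.4 CPM in other fibroblasts.

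Other settings ended several of these calls. Fabp4 did not pass with a gate of 3 UMIs (1.67, adjusted p = 0.804), a gate of 8 UMIs (4.81, adjusted p = 0.171) or a hashtag ratio of 10 (4.16, adjusted p = 0.124). Mrgprg with a gate of 8 UMIs stood at 1.38 (adjusted p = 0.77) and Tgfbi at -3.98 (adjusted p = 0.0823), and Ifitm1 for 4T1 with a gate of 3 UMIs at -1.88 (adjusted p = 0.0929). For 67NR, Fgl2 stood at -2.58 with a gate of 3 UMIs (adjusted p = 0.193) and at -1.41 with a hashtag ratio of 10, and Dlg2 at -2.90 with a gate of 8 UMIs (adjusted p = 0.276) and at -2.21 with a hashtag ratio of 10. Both had an adjusted p of 1 at that ratio, where Srgn stood at -2.48 (adjusted p = 0.0951) and Ier3 at -1.62 (adjusted p = 0.323). Without the block by library and condition, Cxcl13 and Ifitm1 were the genes that passed for 4T1 and Ifitm1 the gene that passed for 67NR.

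Passing as well were Ccl5 and Samsn1 for 4T1 and Ccl5 and Rgs1 for 67NR, with few UMIs or opposite signs of the difference in the libraries, and the locus 1600010M07Rik for 67NR. These were named after their values were seen. In the naive adventitial sum of the myeloid and stromal library 1 cell gave 92% of the UMIs of Ccl5.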

How the results depend on the processing

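In the test of 4T1 over naive nodes, where 0 genes passed, DESeq2 called 36, a gate of 3 UMIs 6, a gate of 8 UMIs 4, a hashtag ratio of 10 called 127 and no filter on low counts 247. For 67NR over naive nodes, where 6 passed, 14 passed with at most 5% mitochondrial UMIs, 14 with the LPS sum in the fit, 14 with cells thinned to 2000 UMIs (2 of the 6 among them), 17 with a gate of 3 UMIs, 14 with a gate of 8 UMIs, 57 by DESeq2, 118 with a hashtag ratio of 10 and 361 with no filter. For 4T1 over 67NR, where 0 passed, 1 passed with at most 5% mitochondrial UMIs, 2 with a gate of 8 UMIs, 20 with a hashtag ratio of 10 and 60 with no filter. Leaving out 1 sum at a time gave 0 to 61 calls for 4T1 over naive, 0 to 83 for 67NR over naive and 0 to 10 for 4T1 over 67NR. A hashtag ratio of 10 left 9 cells of 67NR in the myeloid and stromal library, under the minimum for a sum, so its fit held 5 sums. In the interaction a hashtag ratio of 10 gave 53 genes for 4T1 and 18 for 67NR, no filter 86 and 87, and a gate of 8 UMIs 16 for 67NR, each against 10. The causes were not tested.

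With no replicate block 0 genes passed for 4T1 over naive, 0 for 67NR over naive and 0 for 4T1 over 67NR, and in the interaction 2 passed for 4T1 and 1 for 67NR.

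Genes 2-fold or more apart numbered 1432 for LPS over naive with a hashtag ratio of 10, against 694, and 278 with thinned cells, 260 at 50 UMIs and 1160 at 10 UMIs in the higher sum. For 4T1 over LPS the last 3 settings gave 219, 259 and 1256 against 734, and for 67NR over LPS 451, 492 and 1310 against 826. Snhg4, at 34 UMIs in LPS and 1 in naive cells, was the 1 named gene whose sign turned (-0.0142 with a hashtag ratio of 10). Adventitial cells were 45.1% of gated fibroblasts, and 34.4% with a hashtag ratio of 10, 48.6% and 39.9% with gates of 3 and 8 UMIs, and 19.8% after thinning. The gate on thinned counts took in 1671 cells as gated fibroblasts in place of 1225. Of 1217 refits of 74 named folds, 955 kept their side of the threshold, 238 newly passed and 24 no longer passed. Refits that did not test the named gene, or gave it no adjusted p, are not among the 1217. Of 120 refits of 15 named interaction results, 96 kept their side, 24 no longer passed and 0 newly passed. Removing cells with a second hashtag at 10 or more left no sum with 10 cells and was not run. The naive sums held 32 and 33 cells, and what that limits was not tested. Single cells supply over 60% of the UMIs of some genes named above.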
